A study of Mus musculus with 11 samples.

Results

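On day 3 of culture, after the differentiation of activated mouse B cells into plasma cells that the study followed, the places bound by the transcription factor IRF4 were set against those bound by PU.1. The members were all peaks of the authors' day 3 group lists, 1 list per factor, together with the 3 IRF4 and 2 PU.1 library lists behind them. An IRF4 and a PU.1 peak counted as joint when their positions lay less than 200 bp apart. Of 22088 regions in all, 1258 were joint, 706 held IRF4 alone and 20124 held PU.1 alone. They came from 5 of the 10 chromatin immunoprecipitation libraries of a series of 11 samples.

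IRF4 is a transcription factor of the interferon regulatory factor family that activated B cells and plasma cells need, and on its own it binds DNA weakly. PU.1, the product of Spi1, belongs to the Ets family, acts in B lymphocytes and myeloid cells, binds DNA by itself and can recruit IRF4 to a composite element in which an Ets half-site stands next to an IRF half-site. IRF4 can also pair with AP-1 factors such as BATF at AP-1-IRF elements, or bind as a pair of IRF molecules at interferon-stimulated response elements.

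All day 3 libraries were made from B cells purified from spleens of B1-8i mice of the 129 strain, whose targeted heavy chain gene recognises the hapten NP. Cells were stimulated for 3 days with CD40L, NP-Ficoll (0.01 ng/mL) and the interleukins IL-2, IL-4 and IL-5, and DNA was recovered with an antibody to IRF4 (3 libraries) or to PU.1 (2 libraries) and sequenced after selecting library fragments of about 250 bp. Both groups share genotype, strain, stimulation and time, and differ in the antibody. The labels give neither the share of cells that had become plasma cells nor whether the replicates were separate mice or cultures, so spread between libraries may be technical. The lists hold no expression values, so the labelled cell type could not be checked by its marker genes. In bulk cells, binding in fewer cells and weaker binding per cell cannot be told apart.

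The IRF4 libraries held 2784, 1408 and 5595 peaks in replicates 1, 2 and 3, and the PU.1 libraries 34410 and 34061. Replicates carry the numbers of the sample descriptions. The sample titles number the same libraries differently, and those of IRF4 replicate 3 and PU.1 replicate 1 bear a pair of numbers each, whose meaning is not given. Each peak carries the authors' fold enrichment over input, which is used here only within its own list, and no read count, so the depth behind a peak is unknown. Region numbers in the lists run further than the lines do, and lines for 60.8% (IRF4 replicate 3) to 90.4% (PU.1 replicate 2) of the numbers were present. The IRF4 libraries overlapped unevenly. A partner in another IRF4 library was found for 63.6%, 89.1% and 30.3% of the peaks of replicates 1, 2 and 3. Of the 559 strongest peaks of replicate 3, 81.0% had a partner in replicate 1 and 69.6% in replicate 2. The PU.1 libraries were not interchangeable either. Of the 3442 strongest peaks of PU.1 replicate 1, 98.7% had a partner in replicate 2, but of the 3406 strongest of replicate 2 only 83.4% had one in replicate 1. The PU.1 group list holds peaks of replicate 1 with a partner in replicate 2, so strong places of replicate 2 alone are missing from it. For this reason the 706 IRF4-alone regions are also given apart: 374 had no PU.1 peak in any library, 257 had one in replicate 2 only and 75 had one in replicate 1 only. What set these differences between lists was not tested.

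The sequences below show the elements on which the comparison turns, each cut from the mm9 reference with 25 bases on either side of the element and written 5′ to 3′ on the strand that reads it. In the first set, capitals mark the Ets-IRF composite element (EICE, GGAANNGAAA) at joint regions, where the GGAA is the Ets half-site and the GAAA the IRF half-site.
Snx29 intron, chr16:11386037-11386096, minus strand: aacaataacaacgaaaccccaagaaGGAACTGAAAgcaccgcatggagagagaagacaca
Heg1 intron, chr16:33745734-33745793, plus strand: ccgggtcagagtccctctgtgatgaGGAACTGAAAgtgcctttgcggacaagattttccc
Bach2 intron, chr4:32445730-32445789, minus strand: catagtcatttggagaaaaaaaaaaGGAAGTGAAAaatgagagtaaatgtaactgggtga
Pax5 intron, chr4:44684048-44684107, plus strand: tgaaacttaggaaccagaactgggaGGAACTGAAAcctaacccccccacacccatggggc
Ern1 intron, chr11:106289658-106289717, minus strand: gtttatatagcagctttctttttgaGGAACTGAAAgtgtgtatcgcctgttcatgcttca
Near Cd79b, chr11:106167274-106167333, minus strand: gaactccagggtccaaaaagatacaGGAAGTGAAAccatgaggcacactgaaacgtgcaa

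The second set comes from IRF4-alone regions without a PU.1 peak in any library. Capitals mark the AP-1 site (TGANTCA) near Grap and in an Ell2 intron, the AP-1-IRF composite element (AICE, GAAATGANTCA or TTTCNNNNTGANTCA) near Zmynd11 and in introns of Lgmn and Zbtb32, and the interferon-stimulated response element (ISRE, GAAANNGAAA) in a Prdm1 intron, upstream of Irf4 and upstream of Ifi204.
Near Grap, chr11:61458185-61458241, plus strand: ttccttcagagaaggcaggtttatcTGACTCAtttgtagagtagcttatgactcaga
Ell2 intron, chr13:75877614-75877670, plus strand: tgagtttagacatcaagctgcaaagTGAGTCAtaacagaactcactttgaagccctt
Near Zmynd11, chr13:9766721-9766781, minus strand: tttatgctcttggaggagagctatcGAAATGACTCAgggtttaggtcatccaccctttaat
Lgmn intron, chr12:103664694-103664754, plus strand: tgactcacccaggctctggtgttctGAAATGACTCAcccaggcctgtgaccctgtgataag
Zbtb32 intron, chr7:31379339-31379403, minus strand: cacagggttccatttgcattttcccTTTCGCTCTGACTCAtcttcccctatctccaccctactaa
Prdm1 intron, chr10:44164316-44164375, plus strand: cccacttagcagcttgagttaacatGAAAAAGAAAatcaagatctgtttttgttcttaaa
Upstream of Irf4, chr13:30824740-30824799, plus strand: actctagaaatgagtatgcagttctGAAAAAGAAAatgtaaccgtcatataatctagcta
Upstream of Ifi204, chr1:175697177-175697236, minus strand: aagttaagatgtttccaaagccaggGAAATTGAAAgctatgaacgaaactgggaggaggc

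The third set shows leading PU.1-alone regions, with the PU.1 site (GAGGAAGT) in capitals. None of these 3 windows held an EICE.
Near Nuak2, chr1:134238447-134238504, plus strand: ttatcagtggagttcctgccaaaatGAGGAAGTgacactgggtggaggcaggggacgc
Rfx7 intron, chr9:72440001-72440058, plus strand: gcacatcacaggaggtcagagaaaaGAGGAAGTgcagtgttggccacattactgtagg
Prkce intron, chr17:86846637-86846694, plus strand: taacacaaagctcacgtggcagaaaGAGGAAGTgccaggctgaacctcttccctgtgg

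PU.1 lay at most IRF4 places, while IRF4 lay at few PU.1 places. In the group lists 64.1% of 1964 IRF4 peaks were joint (95% Wilson interval 61.9 to 66.1), against 5.88% of 21382 PU.1 peaks (5.58 to 6.21). Taken library by library, 56.2%, 66.0% and 41.3% of the peaks of IRF4 replicates 1, 2 and 3 had a partner in the PU.1 group list. For PU.1 replicates 1 and 2, 3.87% and 4.44% of peaks had a partner in the IRF4 group list. PU.1 lists were also much longer than IRF4 lists. With the 1408 strongest peaks of each library the IRF4 shares were 61.3%, 66.0% and 61.1% and the PU.1 shares 39.8% and 48.9%. Partners were still sought in the full group lists of 21382 PU.1 and 1964 IRF4 peaks, so this count does not remove the difference in length. When a PU.1 peak in any library was enough, 81.0% of the 1964 IRF4 peaks were joint.

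Joint positions almost coincided. The distance between the IRF4 and the PU.1 position had a median of 20 bp over the 1258 joint regions, with quartiles of 10.0 and 39.0 bp. Of all 1964 IRF4 peaks, 53.2% lay within 50 bp of a PU.1 position, 15 lay at least 150 but less than 200 bp away and 8 at least 200 but less than 250 bp away. Few regions therefore sat near the limit of 200 bp. The strongest just inside it was in an Acoxl intron, at 160 bp and with an enrichment of 81.9, and the strongest just outside it was the region near Zmynd11, at 206 bp and with 94.8.

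Most of the strongest joint regions lay in introns. Called in all 5 libraries were 560 joint regions, and the 8 ranked highest by percentile within the libraries lay in introns of Snx29, Cnpy3, Ndst1, Heg1, Bach2, Acoxl and Ppp1r12a and upstream of Sykb. In the Snx29 intron (chr16:11385880-11386238), which belongs to a sorting nexin gene, the IRF4 enrichment was 127, 88.8 and 121 in replicates 1, 2 and 3 and the PU.1 enrichment 925 and 792 in replicates 1 and 2. In the Cnpy3 intron (chr17:46888405-46888705), a gene for a chaperone of Toll-like receptors, IRF4 had 103, 83.2 and 96.2 and PU.1 880 and 925. The Cnpy3 region lay 594 bp from a transcript start, within the 1 kb counted as promoter below. For both regions the PU.1 values exceeded every IRF4 value, but the lists have separate scales and only ranks within a list can be compared.

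At Bach2, which encodes a repressor of plasma cell differentiation, the intronic region at chr4:32445615-32446062 had an IRF4 enrichment of 97.4, 67.1 and 86.6 and a PU.1 enrichment of 751 and 749. Upstream of Sykb, the annotation's name for the kinase gene Syk, the region at chr13:52667922-52668205 had 81.7, 51.6 and 185 for IRF4 and 2032 and 1872 for PU.1, and its IRF4 and PU.1 positions were identical. Of these 8 regions 6 held an EICE, the exceptions being Acoxl and Sykb.

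**Figure D1:**
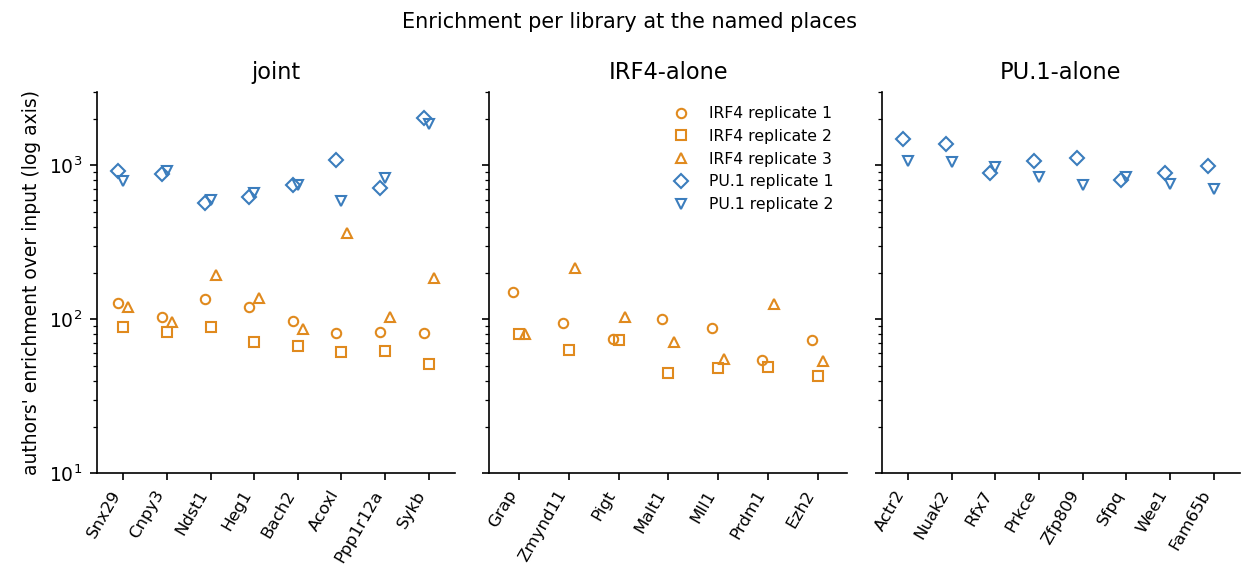
The authors' enrichment over input (log axis) is plotted for 8 leading joint, 7 IRF4-alone and 8 PU.1-alone regions, with 1 symbol per library and none where the library had no peak. IRF4 symbols at joint regions lie between 51.6 and 365 and PU.1 symbols between 571 and 2032, and the scales of different lists are not comparable.

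PU.1 was found more often at strong than at weak IRF4 peaks. Each list was cut by rank of enrichment into 5 classes of like size. From the lowest to the highest class, the joint share went from 49.6% to 65.4% in IRF4 replicate 1, from 57.7% to 72.8% in replicate 2 and from 23.6% to 63.3% in replicate 3. The intervals of the lowest and the highest class did not overlap in any of the 3 libraries. Joint peaks had a higher median percentile than IRF4 peaks without PU.1 in the same library, 54.3 against 44.8, 53.0 against 43.4 and 64.3 against 40.6. The mean difference was 14.2 ± 8.20 percentile points (SD, n = 3), positive in 3 of 3 libraries, and 9.48 without replicate 3.

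In the PU.1 libraries the joint share was low in all classes but the highest. In PU.1 replicate 1 the joint share was 0.610% in the lowest class, 1.98% in class 4 and 15.2% in the highest, and in replicate 2 it was 0.483%, 1.99% and 18.1%. Joint peaks therefore sat near the top of the PU.1 lists, with median percentiles of 94.4 and 95.1 against 48.4 and 48.0 for the other PU.1 peaks. IRF4 was called mainly where PU.1 enrichment was highest in both libraries.

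**Figure D2:**
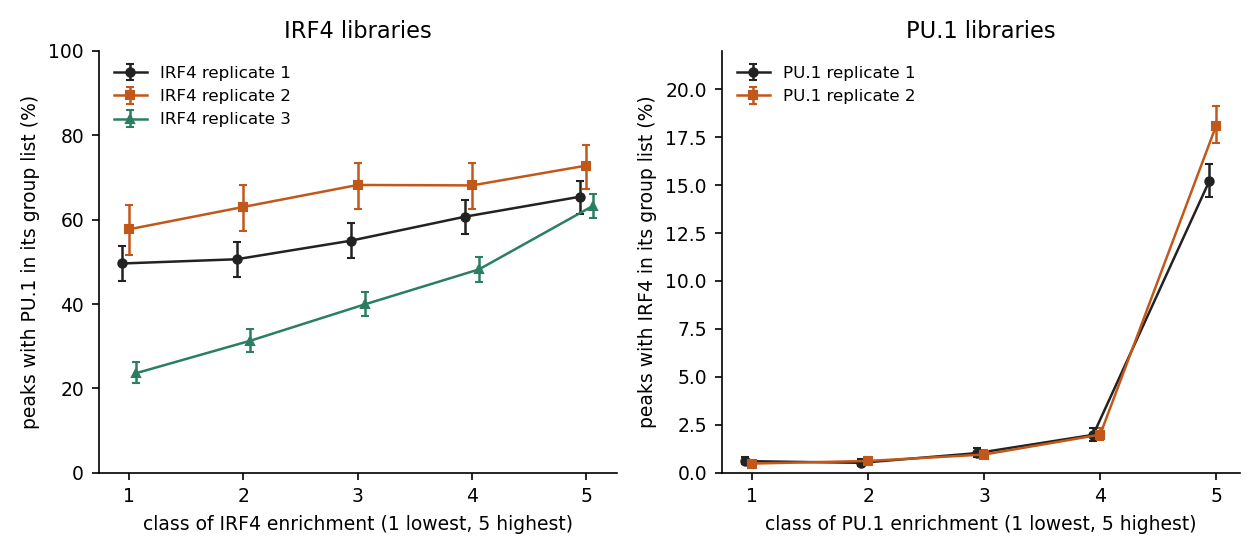
The share of peaks with a partner in the other factor's group list (percent, bars are 95% Wilson intervals) is plotted against the class of enrichment (1 lowest, 5 highest) within each library. The shares end at 65.4%, 72.8% and 63.3% in the highest class of the IRF4 libraries and at 15.2% and 18.1% in that of the PU.1 libraries.

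The EICE set joint regions apart from both other classes. Like all motifs it was searched on either strand in a window of 200 bp centred on the peak, and 2.18% of all 200-bp tiles of the genome held it. Joint regions held it in 38.6% of 1258 cases and IRF4-alone regions in 14.9% of 706, a difference of 23.7 percentage points (95% interval 19.8 to 27.3; Fisher's exact test, adjusted p = 4.70e-29 over 14 comparisons). Read around the PU.1 positions, 38.9% of joint and 11.9% of 20124 PU.1-alone regions held it (Fisher's exact test, adjusted p = 3.39e-120). These regions were not matched for PU.1 enrichment, with which the EICE share also rose. From the lowest to the highest class of enrichment, joint peaks included, it went from 6.39% to 19.8% in PU.1 replicate 1. In replicate 2 it went from 7.84% to 23.7%. With the stronger 50% of each list the difference was 29.4 points, still without matching. Windows 2 kb to either side held an EICE at 2.19%, 2.20% and 1.94% for the joint, IRF4-alone and PU.1-alone regions, near the share of the tiles. The EICE holds a half-site for each factor, and a peak of the other factor defines the joint class. Both EICE comparisons therefore lean in part on the class rule.

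The EICE of IRF4-alone regions came mostly from places that a PU.1 library had called. It was present in 34.6% of the 257 regions with a PU.1 peak in replicate 2 only, in 4.00% of the 75 with one in replicate 1 only and in 3.48% of the 374 with none. The median PU.1 percentile was 92.5 within replicate 2 for the 257 and 36.6 within replicate 1 for the 75. When IRF4 regions with a PU.1 peak in any library were set against those with none, the difference in EICE share grew to 32.8 percentage points (Fisher's exact test, adjusted p = 4.49e-45). On the PU.1 side, 25.5% of the 1724 PU.1-alone regions with an IRF4 peak in 1 library held an EICE, against 10.6% of the 18397 without any.

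The AP-1 site went the other way. It was found in 14.9% of joint and 33.6% of IRF4-alone regions, -18.7 percentage points (95% interval -22.7 to -14.7; Fisher's exact test, adjusted p = 8.09e-21), and in 5.93% of the tiles. Without any PU.1 peak the share was 45.2%. The AICE, which contains an AP-1 site, was present in 1.91% of joint and 6.94% of IRF4-alone regions (Fisher's exact test, adjusted p = 8.96e-08), in 10.2% of those without any PU.1 peak and in 0.177% of the tiles. Among IRF4-alone regions, 23 held the form GAAATGANTCA and 27 the form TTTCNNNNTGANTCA, against 7 and 17 joint regions. With PU.1 replicate 1 left out, all 34061 peaks of replicate 2 formed the PU.1 list, with no partner required. The differences in AP-1 site and AICE share were then -28.9 and -8.10 points, where that in AICE share over all libraries was -5.03. Library by library, the size of the contrast varied. Peaks with and without a PU.1 group-list partner held an AP-1 site in 15.3% and 35.6% in IRF4 replicate 1. The shares were 12.7% and 29.4% in replicate 2, but 12.3% and 15.5% in replicate 3. The AICE shares were 1.98% and 7.06%, 1.83% and 6.26%, and 1.47% and 2.46% in replicates 1, 2 and 3.

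The ISRE was also less frequent at joint regions, at 10.1% against 17.4% of IRF4-alone regions (Fisher's exact test, adjusted p = 7.14e-06), with 19.8% where no PU.1 peak was called and 3.30% in the tiles. An ISRE and an EICE can overlap in a shared GAAA, and 3.26% of joint regions held both. The PU.1 site was in 17.2% of joint and 5.95% of IRF4-alone regions (Fisher's exact test, adjusted p = 3.58e-13), in 1.34% of IRF4-alone regions without any PU.1 peak and in 1.19% of the tiles. A PU.1 peak defines the joint class, so this comparison says little beyond the class rule. Over all peaks of PU.1 replicates 1 and 2 the PU.1 site share was 21.7% and 24.6%. A PU.1 site can run into an EICE, and 6.68% of joint regions held both.

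Compared with PU.1-alone regions, joint regions held the PU.1 site less often, 18% against 24.6% (Fisher's exact test, adjusted p = 6.89e-08). AP-1 site (13.4% against 7.38%), AICE (1.83% against 0.234%) and ISRE (9.46% against 5.48%) were more frequent at joint regions (Fisher's exact test, adjusted p = 3.21e-12, 1.03e-11 and 6.89e-08). An IRF4 peak defines the joint class here, and AICE and ISRE contain IRF half-sites. Their comparisons therefore also lean in part on the class rule. With the stronger 50% of each list the ISRE difference no longer passed, at 1.60 points (Fisher's exact test, adjusted p = 0.152). A control sequence with the bases of the EICE in reverse order, AAAGNNAAGG, was in 2.31% of joint and 1.70% of IRF4-alone regions, a difference of 0.606 points (95% interval -0.823 to 1.83; Fisher's exact test, adjusted p = 0.446), and in 2.08% of the tiles. None of the 5 motifs was found in 36.1% of joint, 38.0% of IRF4-alone and 57.1% of PU.1-alone regions.

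**Figure D3:**
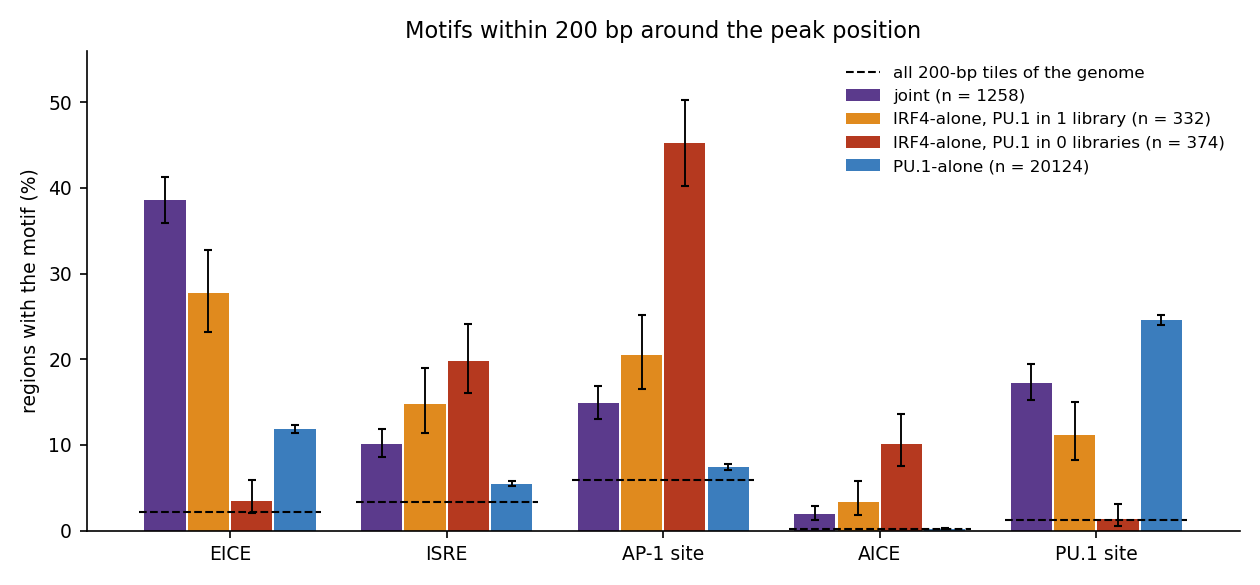
Bars give the share of regions with each motif (percent) in 4 sets of regions, error bars are 95% Wilson intervals and dashed lines give the share of all 200-bp tiles. The EICE bar falls from 38.6% at joint regions to 3.48% where IRF4 was called without PU.1 in any library, while the AP-1 bar rises from 14.9% to 45.2%.

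The motif shares of the libraries as a whole depended on how many peaks were taken. The EICE share was 24.9%, 32.7% and 17.3% in IRF4 replicates 1, 2 and 3 and 10.6% and 13.2% in PU.1 replicates 1 and 2. All 3 IRF4 values lay above both PU.1 values, by 13.1 percentage points on average (two-sided exact permutation p = 0.2, the smallest that 3 against 2 libraries allow). Among the 1408 strongest peaks of each library, however, the shares were 28.5%, 32.7% and 28.5% for IRF4 and 31.3% and 34.8% for PU.1, and the difference turned to -3.16. The ISRE share stayed higher in IRF4 libraries under both counts, with 10.6%, 12.5% and 13.5% against 7.17% and 6.82% among the strongest peaks.

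The EICE copies at joint regions differed from those of the genome in the bases between the half-sites. Of 504 copies in the joint windows, 37.7% had GT and 31.0% had CT between the half-sites, while among 342795 copies in the genome these spacers made up 9.76% and 3.62%. The spacer AG, the most frequent in the genome at 23.7%, made up 0.595% of the joint copies. The sequences of Bach2 and Cd79b above carry the GT form, and those of Snx29, Heg1, Pax5 and Ern1 the CT form. PU.1-alone regions also had GT most often, at 33.8% of 2453 copies, but had CT in 16.6%. IRF4-alone regions had CT in 43 copies (39.8%) and GT in 31 (28.7%). The base before the first G was A in 59.5% of the joint copies and C in 1.79%, and the second spacer base was T in 79.6%.

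The IRF4 position lay slightly to the IRF side of the element. In the 467 joint regions with exactly 1 EICE, the IRF4 position was on the GAAA side of the PU.1 position in 271, on the GGAA side in 184 and at the same base in 12. The median displacement was 7.00 bp towards the GAAA side, with quartiles of -9.50 and 23.0 bp. Read from each pair of libraries, which share libraries among them, the 6 medians were between 4 and 9 bp. The PU.1 position lay within 25 bp of the middle of the element in 77.5% of these regions and the IRF4 position in 59.7%.

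**Figure D4:**
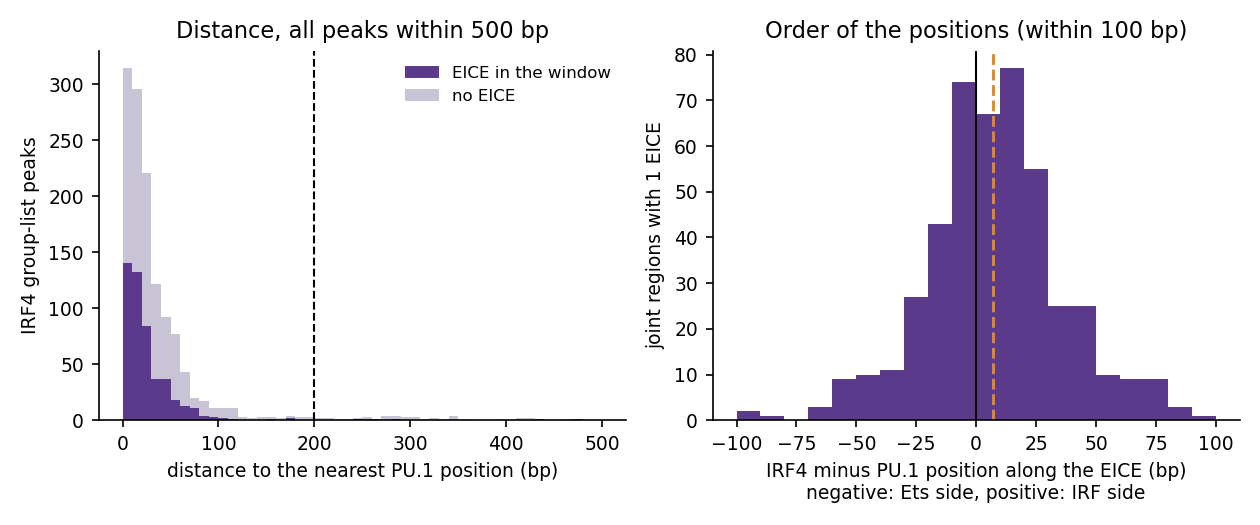
The left panel counts IRF4 group-list peaks by distance to the nearest PU.1 position (bp), with peaks holding an EICE in the dark colour and the 200 bp limit dashed. The right panel counts joint regions with 1 EICE by the IRF4 position minus the PU.1 position along the element (bp), and its dashed line marks the median of 7.00 bp.

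IRF4-alone regions called in 3 IRF4 libraries and 0 PU.1 libraries numbered 119. Upstream of Grap, a gene for an adaptor of the Grb2 family, the region at chr11:61457969-61458391 had an enrichment of 151, 80.1 and 80.5 in IRF4 replicates 1, 2 and 3. Near Zmynd11, which encodes a reader of methylated histone H3, the region at chr13:9766550-9767001 had 94.8, 62.8 and 214. A PU.1 group-list position lay 206 bp from it, so its class rests on the distance rule.

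Others of this set lay 24.4 kb from the nearest start of Pigt, 48.3 kb from Malt1, in an Mll1 intron, 246 kb upstream of Prdm1 and 25.9 kb upstream of Ezh2. Malt1 encodes a protease of the antigen receptor pathway to NF-kB, Mll1 and Ezh2 encode histone methyltransferases, and Prdm1 encodes Blimp-1. Of the 7 leading regions described, 5 held an AP-1 site and 0 an EICE. The region far upstream of Prdm1 (chr10:44423996-44424335) had 54.7, 49.3 and 126, and it held none of the motifs, like that of Mll1.

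Among those with an AICE, the region in an intron of Lgmn, the gene of the lysosomal protease legumain, had 42.8, 41.2 and 62.8, and that in a Sec24a intron, a gene of vesicle coats, 33.1, 42.1 and 62.2. An intron of Zbtb32, which encodes a zinc-finger repressor, had 46.3, 37.8 and 137 and held both an AICE and an ISRE in overlapping bases, with a PU.1 group-list position 230 bp away. An ISRE region 253 kb from the start of Myc had 70.0, 33.1 and 29.6.

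At 18394 of the PU.1-alone regions PU.1 was called in 2 libraries and IRF4 in 0. In an intron of Actr2, a subunit gene of the Arp2/3 complex, PU.1 enrichment was 1485 and 1070 in replicates 1 and 2 (chr11:20012124-20012642), and 25.8 kb from the nearest start of the kinase gene Nuak2 it was 1381 and 1051. Introns of Rfx7, Prkce, Sfpq and Fam65b, the sequence upstream of Zfp809 and a place 44.0 kb from Wee1 followed, with enrichments between 707 and 1113. Of these 8 regions 6 held a PU.1 site, 2 an ISRE and 0 an EICE. Their PU.1 enrichment lay within the range of the leading joint regions.

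Joint regions lay at promoters less often than PU.1-alone regions, and most regions of either class lay elsewhere. Within 1 kb of an annotated transcript start lay 9.38% of joint and 20.2% of PU.1-alone PU.1 positions, -10.8 percentage points (95% interval -12.4 to -9.01; Fisher's exact test, adjusted p = 1.91e-23). This difference was -7.36 points without PU.1 replicate 1 and -12.7 without PU.1 replicate 2. In these cases all peaks of the remaining PU.1 library formed its list, with no partner required. Over all peaks, PU.1 replicates 1 and 2 had 21.8% and 15.6% at promoters. Among their 1408 strongest peaks the shares were 16.4% and 9.66%, the latter close to that of joint regions. For IRF4 positions the shares were 9.30% of joint and 7.08% of IRF4-alone regions, a difference of 2.22 points (95% interval -0.380 to 4.62; Fisher's exact test, adjusted p = 0.108). That difference turned to -0.163 without PU.1 replicate 1 and was 3.19 without PU.1 replicate 2 (Fisher's exact test, adjusted p = 0.995 and 0.0223). Outside promoters, 45.1% of joint regions were intronic and 41.6% intergenic, and 44.8% and 46.5% of IRF4-alone regions were. The median base composition was 46.5% G and C at joint, 45.5% at IRF4-alone and 48.5% at PU.1-alone regions.

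The ISRE share was higher at promoters than elsewhere among both IRF4-alone and joint regions. Of 50 IRF4-alone promoter regions 14 held an ISRE, or 28.0% (95% Wilson interval 17.5 to 41.7), against 16.6% of those elsewhere (14.0 to 19.7), and of 117 joint promoter regions 20 did, or 17.1% (11.3 to 24.9). Joint regions elsewhere held an ISRE in 9.38% (7.82 to 11.2), an interval that did not overlap that of joint promoters. The interval of IRF4-alone promoters overlapped that of IRF4-alone regions elsewhere and that of joint promoters. Among PU.1-alone regions the ISRE share was lower at promoters than elsewhere. This split was made after the values were seen. The IRF4-alone ISRE promoters called in all 3 IRF4 libraries were those of Ifi204, Etv6, Mnda and Zbp1. Ifi204 and Mnda are interferon-inducible genes of 1 family, Etv6 is an Ets-family repressor and Zbp1 a sensor of nucleic acids.

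Upstream of Ifi204 by 110 bp, the region at chr1:175697071-175697279 had an IRF4 enrichment of 48.5, 39.4 and 30.5 and no PU.1 peak. At Etv6 it was 34.2, 27.4 and 39.6, with a PU.1 peak of 71.9 in replicate 2 only, and at Zbp1 24.3, 18.1 and 26.6, with a PU.1 peak of 77.5 in replicate 1 only. Joint ISRE promoters in all 5 libraries included those of the guanylate-binding protein genes Gbp7 and Gbp3, of Rtp4, Oas1b and Socs1. At Gbp7 the IRF4 values were 48.5, 52.9 and 45.1 and the PU.1 values 442 and 302, and at Oas1b 24.8, 27.2 and 25.8 and 36.1 and 34.8. Interferon-stimulated genes thus stood on both sides of the division.

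Genes were assigned by distance alone, a peak in the gene or within 20 kb of it, which says nothing of whether the peak regulates it. Of 22238 protein-coding genes, 1341 (6.03%) lay near a joint peak, 691 (3.11%) near an IRF4-alone peak and 11909 (53.6%) near a PU.1-alone peak. Both kinds of IRF4 peak were near 150 genes, which is 11.2% of the genes near joint and 21.7% of those near IRF4-alone peaks. Of the 541 genes with an IRF4-alone but no joint peak, 461 still had a PU.1-alone peak within the same distance. A gene near IRF4-alone peaks was therefore seldom without PU.1 in its surroundings. The counts depended on single libraries: without IRF4 replicate 1 or 3, 758 and 815 genes lay near joint and 316 and 337 near IRF4-alone peaks, and without PU.1 replicate 1 the latter numbered 458. For the 458, every peak of PU.1 replicate 2 counted as a partner.

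Genes of B cell receptor signalling and identity stood near joint peaks, 12 of 22, and 2 of 22 near IRF4-alone peaks, beside 6.03% and 3.11% of all genes. PU.1-alone peaks also lay near 22 of 22, beside 53.6% of all genes. Longer genes can hold more peaks, and the list was not compared with genes of the same length. In an intron of Pik3ap1, an adaptor of phosphoinositide 3-kinase, IRF4 had 55.7, 59.4 and 87.2 and PU.1 1202 and 1078. In the Pax5 intron (chr4:44683859-44684229), which belongs to the gene that maintains B cell identity, IRF4 had 69.0, 47.3 and 80.5 and PU.1 925 and 634. All libraries of both factors had a peak there, and the window held an EICE with an AP-1 site and an AICE beside it.

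Upstream of Blnk, an adaptor below the receptor, by 1.24 kb IRF4 had 43.0, 44.1 and 62.5 and PU.1 788 and 859. Near Cd79b, a signalling chain of the receptor, IRF4 had 44.8, 19.7 and 39.8 and PU.1 586 and 522. Bank1, a B cell scaffold, had 26.4, 21.8 and 42.3 for IRF4 and 1126 and 673 for PU.1 in an intron. A region 32 bp upstream of the start of the adaptor gene Dapp1 ranked low for IRF4, with 23.0, 19.0 and 15.6, and high for PU.1, with 1307 and 606.

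The IRF4-alone peaks of the receptor and identity list were those of Pax5 and Ebf1, both of which had joint peaks as well. A further Pax5 intron region (chr4:44637722-44638003) had an IRF4 enrichment of 23.8, 26.9 and 45.1 and no PU.1 peak. Ebf1, a regulator of early B cell genes, had 2 joint and 2 IRF4-alone intron regions, each called in 2 of 3 IRF4 libraries. Inpp5d, Vav1, Fcgr2b and Lyn had joint peaks in 2 of 3 IRF4 libraries.

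Plasma cell genes were near both kinds of peak, 8 of 22 near joint and 8 of 22 near IRF4-alone peaks, with 5 near both. Of all 22238 genes, 6.03% were near joint and 3.11% near IRF4-alone peaks, and 150 genes near both. Near PU.1-alone peaks were 18 of 22 plasma cell genes, beside 53.6% of all genes. In the Prdm1 intron (chr10:44164272-44164596), IRF4 had 33.4, 29.6 and 43.2 without a PU.1 peak, while a joint peak 23.9 kb from the start had 22 and 16.4 in IRF4 replicates 1 and 3, none in replicate 2, and 618 and 592 for PU.1. Upstream of Irf4 itself by 16.3 kb (chr13:30824584-30824875), IRF4 had 47.0, 26.5 and 37.8 without PU.1. The Prdm1 intron and the Irf4 upstream region carry the same ISRE letters, as printed above.

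Ell2, an elongation factor for secretory immunoglobulin transcripts, had an IRF4-alone intron peak at 32.1, 33.7 and 83.5. The sensor of the unfolded protein response Ern1 had a joint intron peak at 35.4, 20.6 and 53.7 for IRF4 and 187 and 231 for PU.1. Upstream of Tnfrsf13b, the gene of the receptor TACI, by 17.7 kb a joint peak had 40.5, 30.7 and 56.1 for IRF4 and 632 and 524 for PU.1. An IRF4-alone region 4.17 kb upstream of Tnfrsf13b had 30.4 and 21.3 in IRF4 replicates 1 and 2, none in replicate 3, no PU.1 peak and an AP-1 site. In introns of Pou2f2, which encodes Oct-2, an IRF4-alone peak (55.1, 24.7 and 19.9) lay about 1 kb from a joint peak called in IRF4 replicates 1 and 2 (34.4 and 39.3; PU.1 1176 and 591).

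Zbtb20 and Atf6 also had peaks of both kinds, Cxcr4 and Slamf7 joint peaks only and Dnajb9 an IRF4-alone peak only. The Dnajb9 peak held an EICE and had a PU.1 peak of 208 in replicate 2 only. The IRF4-alone peak of Atf6 had a PU.1 peak of 155 in replicate 2 only. With any PU.1 peak counted, neither would be IRF4-alone.

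Antigen presentation and costimulation genes counted 4 of 18 near joint and 4 of 18 near IRF4-alone peaks, with 0 near both. Over all 22238 genes the shares were 6.03% and 3.11%, and 150 genes were near both. PU.1-alone peaks lay near 18 of 18 listed genes, beside 53.6% of all genes. The IRF4-alone side needs the library values. H2-DMa, H2-DMb1 and H2-DMb2, which encode the class II peptide exchanger, share 1 region (chr17:34279942-34280380) with IRF4 values of 53.0, 27.5 and 26.5, an EICE, and a PU.1 peak of 260 in replicate 2 only. H2-Oa, which encodes a chain of its inhibitor, had 36.8, 32.5 and 39.8 and a PU.1 peak of 264 in replicate 2 only. All 4 IRF4-alone genes of this list therefore had PU.1 in 1 library.

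Joint peaks of the antigen presentation list lay near Cd74, the invariant chain, Fcer2a, the low-affinity IgE receptor, and Icosl, a costimulatory ligand. A further one lay in Tapbp, a class I loading factor. Those of Cd74 lay in a Tcof1 intron 27.3 kb downstream of the Cd74 start and 11.7 kb upstream of that start. The Fcer2a peak, in a Clec4g intron 17.7 kb upstream of the Fcer2a start, had 24.7, 22.4 and 59.1 for IRF4 and 989 and 672 for PU.1. The Icosl peak 5.99 kb upstream of its start had 37.8, 20 and 27.7 for IRF4 and 449 and 419 for PU.1 and held an AICE and a PU.1 site.

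Germinal centre genes counted 5 of 20 near joint and 3 of 20 near IRF4-alone peaks, the 3 being among the 5. The shares of all genes were 6.03% and 3.11%. PU.1-alone peaks lay near 18 of 20 listed genes, beside 53.6% of all genes. A Bach2 intron held the IRF4-alone region at chr4:32492172-32492507 with 65.6, 58.4 and 80.8, an ISRE and an AP-1 site, and a PU.1 peak of 30.1 in replicate 1 only. In the same gene 2 joint regions stood, that with the EICE shown above and a further one with 31.1, 17.5 and 24.1 for IRF4 and 743 and 638 for PU.1. Mef2c and Foxo1, transcription factor genes of the germinal centre, also had both kinds, and Cxcr5 and Il4ra joint peaks only.

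Of the NF-kB and activation genes 7 of 22 were near joint and 2 of 22 near IRF4-alone peaks, beside 6.03% and 3.11% of all genes. PU.1-alone peaks lay near 21 of 22, beside 53.6% of all genes. The Nfkb1 intron at chr3:135328641-135329030 was IRF4-alone with 59.9, 32.6 and 57.6, and a joint Nfkb1 intron peak had 49.2 and 41.3 in IRF4 replicates 1 and 2, none in replicate 3, and 638 and 777 for PU.1. Near Batf, the gene of an AP-1 partner of IRF4, a joint peak had 22.8, 37.2 and 49.1 for IRF4 and 525 and 474 for PU.1. Traf1 had 2 joint peaks in all 5 libraries. Myc, Rel, Nfatc1 and Bcl2l1 had joint peaks in 2 of 3 IRF4 libraries, and Nfkbia an IRF4-alone peak with a PU.1 peak of 33.1 in replicate 1 only.

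Interferon-stimulated genes counted 6 of 24 near joint and 5 of 24 near IRF4-alone peaks, beside 6.03% and 3.11% of all genes. PU.1-alone peaks lay near 20 of 24, beside 53.6% of all genes. Tap1, Psmb8 and Psmb9, of peptide transport and the immunoproteasome, share a joint EICE region (chr17:34317482-34317794) with 56.2, 55.6 and 85.0 for IRF4 and 196 and 307 for PU.1, so that 1 peak counts for 3 genes. Irf2 and Stat2 had joint peaks, Zbp1, Ifit1, Rsad2 and Ddx58 IRF4-alone peaks and Ifi204 both. The Rsad2 region, which held an EICE, had a PU.1 peak of 27.2 in replicate 1 only, and the Ddx58 region one of 26.5 in replicate 2 only. Like Zbp1, they would not be IRF4-alone with any PU.1 peak counted. Ifit1, an antiviral effector, had IRF4 values of 40.6 and 39.1 in replicates 1 and 2, none in replicate 3, 72 bp upstream of its start and no PU.1 peak.

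Genes of Ets, E protein and Ikaros factors counted 6 of 20 near joint and 4 of 20 near IRF4-alone peaks. The shares of all genes were 6.03% and 3.11%. PU.1-alone peaks lay near 19 of 20 listed genes, beside 53.6% of all genes. In an Ets1 intron a joint region had 39.6, 26.6 and 32.9 for IRF4 and 214 and 659 for PU.1, with an EICE and an AP-1 site, and a second one had 24.8, 23.5 and 37.2 and 331 and 404. Etv6 had the IRF4-alone promoter region described above and a joint intron region with 27.7, 21.5 and 49.3 for IRF4 and 277 and 179 for PU.1. Tcf4 had 2 joint intron regions in all 5 libraries, with 64.6, 44.1 and 62.4 at the stronger for IRF4. Ets1 and Tcf4 each had an IRF4-alone intron region without a PU.1 peak as well. That of Ets1 had 22.7 and 30.7 in IRF4 replicates 1 and 2 and an AP-1 site, and that of Tcf4 had 20.8 and 23.2 in replicates 1 and 3, an ISRE and an AP-1 site.

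Genes listed as markers of other cells were also found near some peaks. Myeloid markers counted 2 of 20 near joint and 2 of 20 near IRF4-alone peaks, T and NK cell markers 0 of 20 near joint and 2 of 20 near IRF4-alone peaks. Genes of neurons and liver counted 1 of 20 near joint and 0 near IRF4-alone peaks. For all genes the shares were 6.03% and 3.11%. PU.1-alone peaks lay near 12 of 20 genes in each of these lists, beside 53.6% of all genes. The 10.0% of myeloid and of T and NK cell markers near IRF4-alone peaks stood above the 9.09% of the receptor and identity list, and no test was made of these counts. At the start of Tlr4, a Toll-like receptor gene counted in the myeloid list, a joint region had 56.7, 47.1 and 46.2 for IRF4 and 845 and 638 for PU.1. Msr1, a scavenger receptor, had 2 joint regions in all 5 libraries. Ctla4, an inhibitory T cell receptor, had an IRF4-alone intron region (chr1:60970127-60970559) with 50.7, 43.8 and 78.5. A peak near a marker does not show that other cells were present, and their part was not tested. Whether the cultured B cells themselves expressed these genes was not tested either.

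**Figure D5:**
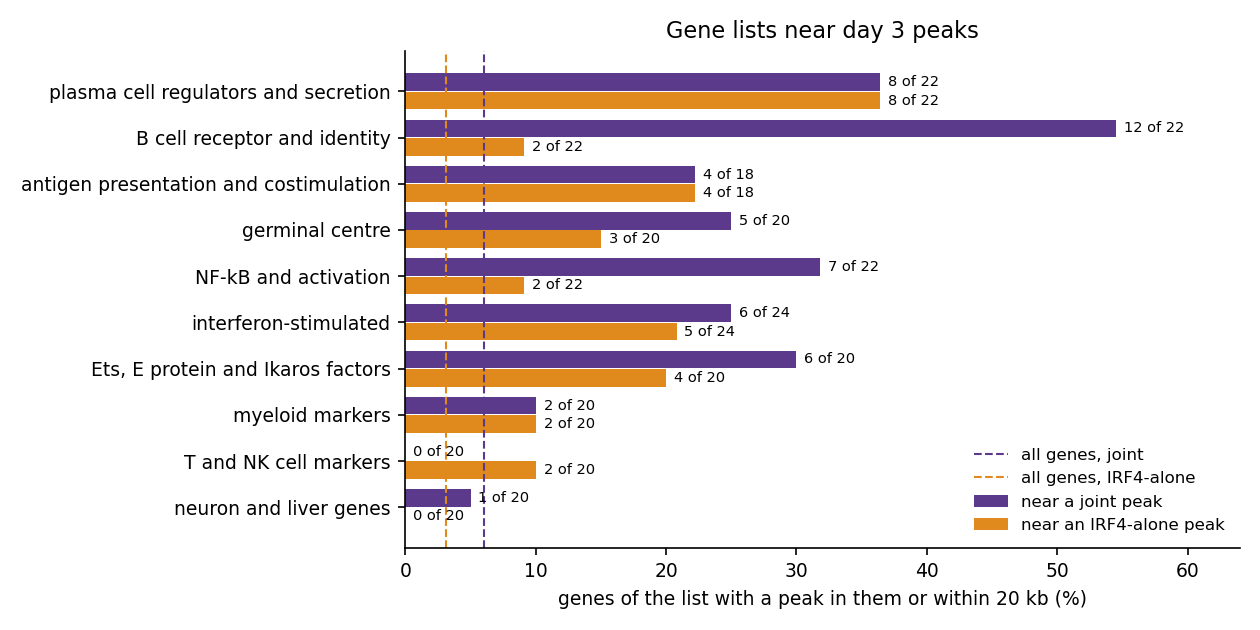
Bars give the share of genes of each list (percent) with a joint or an IRF4-alone group-list peak in them or within 20 kb, with counts beside them, and dashed lines give the shares of all genes, 6.03% and 3.11%. The receptor and identity list stands at 12 of 22 for joint and 2 of 22 for IRF4-alone peaks, and the plasma cell list at 8 of 22 for both.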

How the data were processed

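Per the series' design text, reads were mapped to mm9 and enrichment over input was computed by the authors with QuEST. The build mm9 also stands in the submitters' processing notes. Neither the aligner nor QuEST's version and thresholds are given in the sources used here. The deposited values are the authors' fold enrichment over input, a linear ratio, with 1 line per peak. Each group list was found to hold replicate 1 peaks with a partner at most 200 bp away in another library, and for IRF4 also replicate 2 peaks with a partner in replicate 3 and none in replicate 1 (1772 and 192 lines). The PU.1 list repeats 5 lines, counted once. An input library pooled from 2 preparations enters no comparison. Peak positions are printed as deposited, and motif coordinates count from 1.

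Classes, motifs and distances were computed in Python 3.11.15 with pandas 2.3.3, numpy 2.4.6 and scipy 1.17.1 on the mm9 reference and GENCODE M1 (22238 protein-coding genes), and checked on simulated data. Shares of 2 classes were compared with Fisher's exact test, two-sided, adjusted by Benjamini-Hochberg over 14 comparisons, with regions as units and 95% Wilson and Newcombe intervals that cover counting error only. Values of libraries were compared with exact permutation tests over 3 and 2 libraries, 4 comparisons. The smallest p these tests can give is 0.2, so no outcome could pass the threshold of 0.05. Those p-values do not measure the spread between libraries.

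Places named by rank were the 8 with the highest mean percentile of enrichment within libraries among joint regions in all 5 libraries, IRF4-alone regions in 3 IRF4 and 0 PU.1 libraries and PU.1-alone regions in 2 PU.1 and 0 IRF4 libraries, and 4 each of joint regions with an EICE and IRF4-alone regions with an ISRE or an AICE. Of the leading IRF4-alone regions 1 is not reported here. In gene lists, at most 6 genes a list have values by rule, and PU.1 peaks of single libraries at further IRF4-alone genes were added after the values were seen. All 208 genes of the 10 lists were matched, 2 through older symbols. Members, lists and rules were chosen with earlier results of these data known. Alternatives covered the partner distance, partners in any library, the stronger 50% of lists, the motif window, the promoter and gene distances, equal numbers of top peaks, a replicate block and each library left out. With 1 PU.1 library left out, all peaks of the other formed the PU.1 list, with no partner required. The split of IRF4-alone regions by PU.1 library, the promoter split, the library pairs at the EICE and the leave-out of libraries for percentiles were added after seeing the data.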

Additional observations from a re-analysis of the deposited data

How the results depend on the processing

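Of 229 alternative values, 196 were counted as unchanged. For tested differences between classes this means the same direction and side of the threshold. Shares and counts without a test have no such side. Library comparisons could not pass under any setting, so their side was fixed in advance. The joint share of IRF4 peaks, 64.1%, was 61.8% and 66.2% with partners less than 100 and 500 bp away, 81.0% with a partner in any library and 61.6% with the stronger 50% of each list, and 64.3% to 77.0% with each library left out. Values with 1 PU.1 library left out, the 77.0% among them, mix a changed list rule with the lost library. Every peak of the other PU.1 library then counted, with no partner required. The EICE, AP-1, AICE and PU.1 site differences passed under every alternative tried. The ISRE difference against PU.1-alone regions did not with the stronger 50% (1.60 points, Fisher's exact test, adjusted p = 0.152). The promoter difference against IRF4-alone regions ranged from -0.163 without PU.1 replicate 1 to 3.19 without PU.1 replicate 2. The EICE difference between libraries turned to -3.16 with equal numbers of top peaks. Control sequence differences changed sign, to -0.0112 (partner in any library), -0.109 (stronger 50%), -0.0151 (100 bp window) and -8.69e-04 (400 bp window) against PU.1-alone regions, and ranged from -1.45 to 1.38 against IRF4-alone and from -0.807 to 0.560 against PU.1-alone regions with each library left out, among them -0.0325 and -0.785 without IRF4 replicate 3 and -0.0185 without PU.1 replicate 1. Genes near joint peaks numbered 661 with the stronger 50%, 846 within 5 kb, 2282 within 50 kb and 758 to 1545 with each library left out. Genes near IRF4-alone peaks numbered 374 with a partner in any library, 369 with the stronger 50%, 449 within 5 kb, 1194 within 50 kb and 316 to 616 with each library left out. A wider gene distance takes in more genes by definition, and a looser partner rule leaves fewer IRF4-alone regions. The cause of the other changes was not tested. With a replicate block over numbers 1 and 2, which mark no shared animal or day in the labels, IRF4 minus PU.1 was -32140 peaks, -9.73, 16.9 and 6.47 points for promoter, EICE and ISRE shares (exact permutation p = 0.5). Depth is unknown, so a missing peak does not show that a factor was absent.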

Other observations

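Some genes held several IRF4 regions. Ranked after the values were seen by the number of IRF4 group-list peaks in the gene or within 20 kb, Tg, the gene of thyroglobulin, came first with 5 joint and 2 IRF4-alone peaks over 180 kb. Within its span lies Sla, which encodes an adaptor that lowers antigen receptor signalling, and 4 joint and 0 IRF4-alone peaks lay in or near Sla. Around Bcl2, the gene of a survival factor, there were 4 joint and 0 IRF4-alone peaks over 176 kb. The opposite balance was seen at Atg5, an autophagy gene that neighbours Prdm1, with 1 joint and 4 IRF4-alone peaks over 95.9 kb. Ptprj, a receptor phosphatase gene, had 3 joint and 1 IRF4-alone peaks over 151 kb. Long genes collect more peaks, and no test was made of these counts.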
